A study of Bos grunniens with 9 samples.

Results

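Ribosome footprints of the pregnant yak ovary were set against those of the anestrous yak ovary, using 6 of the 9 libraries of a survey of the yak ovary over the reproductive year. The members were chosen by their labels alone: 3 pregnancy libraries and 3 anestrus libraries, with the 3 estrus libraries used only where stated. Pregnant ovaries were collected in December and anestrous ovaries in April, so that stage and season cannot be told apart. All came from yaks (Bos grunniens) aged 6 years, and the ovary taken was the ipsilateral one, within an hour of death. No group received a treatment, and no transgene or mutation is named for any of them. The labels speak of 3 biological replicates per stage but do not tie a library to an animal, give no month of gestation, and do not say whether an ovary carried a corpus luteum. The p-values therefore measure the spread between these libraries.

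Ribosome profiling sequences the short stretches of mRNA that ribosomes protect from nuclease, so a gene's count reflects both how much of its mRNA is present and how densely ribosomes load it. No matched mRNA libraries were used here, so those parts are not separated, and in whole ovary fewer cells of a type and less RNA per cell cannot be told apart. In pregnant cattle, close relatives of the yak, the ovary holds a corpus luteum, the gland formed from the theca and granulosa cells of the ovulated follicle, which makes progesterone from cholesterol. An anestrous ovary has no cycling corpus luteum, although follicles still grow and regress. Progesterone synthesis starts when STAR moves cholesterol into the mitochondrion, where CYP11A1 cuts it to pregnenolone, which HSD3B1 turns into progesterone.

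Total counts were 9075671, 4969172 and 1468504 in pregnancy libraries 1 to 3, against 15421302, 28937420 and 11996151 in anestrus libraries 1 to 3. Each anestrus library was thus deeper than each pregnancy library, and depth and stage move together. A floor of 3 counts corresponded to 0.120 to 1.83 CPM (counts scaled to a common library size) across the 6 libraries after scaling by the trimmed mean of M-values (TMM), so genes of a few CPM were resolved least well in pregnancy 3. On the first principal component of log2 CPM (45.05% of the variance) pregnancy 3 stood at 97.9 and anestrus 2 at -58.0, with the other 4 libraries between -12.6 and -6.08. Pearson correlations between libraries were 0.872 to 0.955 within a stage and 0.829 to 0.955 between stages. Where leaving out pregnancy 3 and anestrus 2 together turned a fold change or moved it by over 1.5 times, the value without both is given.

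The tissue was ovary by its markers. All 19 granulosa, 9 theca and 15 luteal markers passed the filter on low counts. Of 18 oocyte markers, 16 were matched to a gene and 3 passed. These were the zona pellucida genes ZP2, ZP3 and ZP4, each at most 4.30 CPM in any library. The oocyte factors GDF9, with 2 counts in pregnancy and 14 in anestrus, and BMP15, with 0 and 2, did not pass. Scaled for depth, GDF9 had 0.105, 0.204 and 0 CPM in pregnancy against 0.269, 0.159 and 0.485 CPM in anestrus, which overlap. Per gene length, in the authors' FPKM, the highest gene in both stages was SPARC, a matrix protein of stroma, at a mean of 17688 in pregnancy and 19864 in anestrus. TMSB4X, an actin-binding peptide, averaged 7415 and 6762 FPKM in pregnancy and anestrus, and collagen COL1A1 averaged 6262 and 9137 FPKM.

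By edgeR's quasi-likelihood test, 0 of 13744 genes (0%) passed at an adjusted p of 0.05 between pregnancy and anestrus, with 0.468 the smallest adjusted p. At an unadjusted p under 0.05 there were 871 genes (6.34%), of which 398 (2.9%) were higher and 473 (3.44%) lower in pregnancy. DESeq2 called 36 genes (0.263% of 13706 with an adjusted p), and the authors' deposited table also called 36 (0.202% of 17810). In both tools 18 were higher and 18 lower, and 33 genes were shared, 91.7% of each. The 3 pregnancy libraries all lay above or all below the 3 anestrus libraries for 1793 genes (13%): above for 787 (5.73%) and below for 1006 (7.32%). The median log2 fold change over all genes was -0.00, and 49.7% were above 0. Because no gene passed in edgeR, differences below are given as values, higher or lower in pregnancy, with the DESeq2 call named where there was one. Fold changes are log2 of pregnancy over anestrus, with the standard error, from edgeR.

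**Figure D1:**
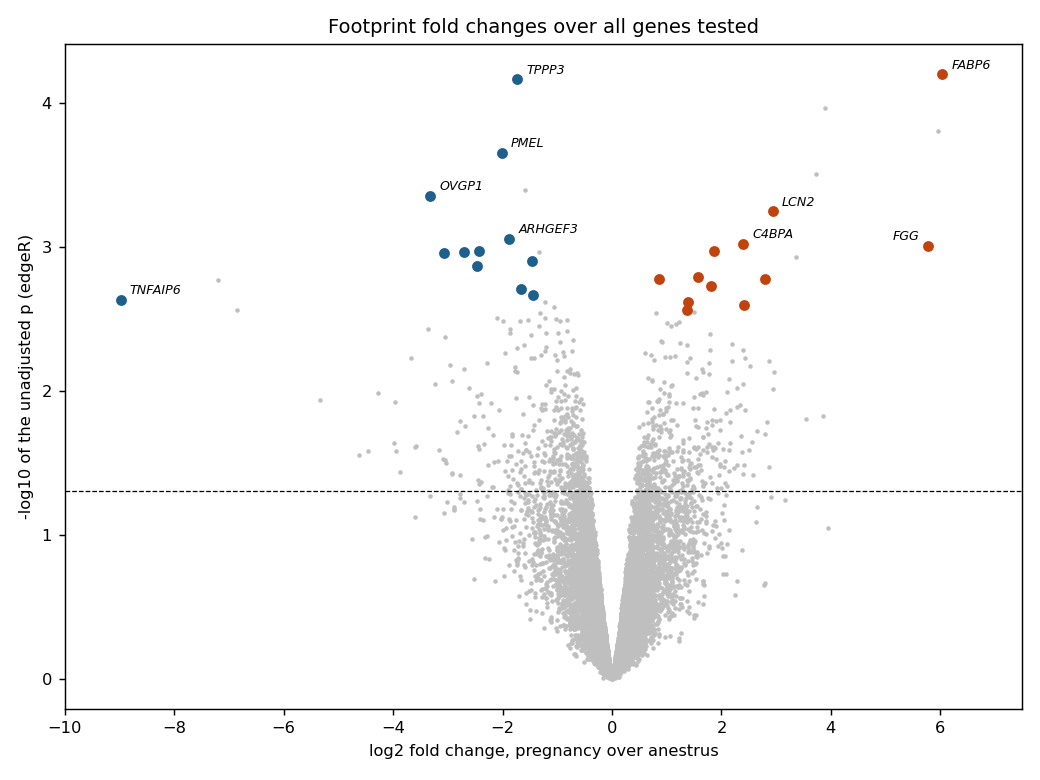
Log2 fold change (pregnancy over anestrus) of each gene tested on the horizontal axis, and -log10 of the unadjusted edgeR p on the vertical axis. Each grey point is a gene, the dashed line marks the unadjusted threshold of 0.05, and the 12 genes named as higher (orange) and the 12 named as lower (blue) in pregnancy are those with the smallest p among genes of known name with at least 5 CPM in the higher stage and no overlap between libraries; the genes of each colour with the smallest p, and TNFAIP6, carry their names.

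Among named genes, the largest differences towards pregnancy were in FABP6 and FGG. FABP6, a fatty acid binding protein known as the bile acid carrier of the ileum, had 4.11, 12.2 and 7.32 CPM in pregnancy against 0.134, 0.159 and 0 CPM in anestrus. The groups were far apart, and the anestrus values rest on 6 counts in all against 111 in pregnancy. Its log2 fold change was 6.03 ± 0.80 (edgeR adjusted p = 0.468), and DESeq2 called it (adjusted p = 8.21e-09). FGG, the gamma chain of fibrinogen, the precursor of the clot protein fibrin, had 21.7, 150.7 and 205.7 CPM in pregnancy against 0.739, 5.26 and 0.324 CPM in anestrus. Pregnancy 1 was the lowest of its group but still above each anestrus library, at a log2 fold change of 5.77 ± 1.14 (edgeR adjusted p = 0.711, DESeq2 adjusted p = 0.00576).

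FGG is made chiefly by liver, so liver genes were read beside it. Of the 18 liver markers found in the table, 4 passed the filter, 2 positive and 2 negative. Their summed levels were 1425 to 3830 CPM in pregnancy and 552 to 1193 CPM in anestrus, most of it from APOA1. The partner chains of fibrinogen were not high: FGA had 0 counts in every library, and FGB had 8 counts in pregnancy and 13 in anestrus. Albumin, ALB, had 2 counts in each stage, and APOB had 0. TTR had 3 counts in pregnancy and 99 in anestrus, APOA2 had 0 and 11, and AHSG had 21 and 26. These counts are not scaled for depth, and the anestrus libraries were deeper. In CPM, AHSG had 0.949, 2.24 and 0.610 in pregnancy against 0.269, 0.438 and 0.890 in anestrus, which overlap. FGB had 0.633, 0 and 1.22 CPM in pregnancy against 0.067, 0.159 and 0.647 CPM in anestrus, which also overlap. TTR had 0.105, 0.408 and 0 CPM in pregnancy against 2.22, 2.51 and 0.243 CPM in anestrus. APOA1, the main protein of high-density lipoprotein, had 2248, 3610 and 1162 CPM in pregnancy against 545, 416 and 1182 CPM in anestrus. Pregnancy 3 fell within the anestrus range there, and the log2 fold change was 1.71 ± 0.51 (edgeR adjusted p = 0.711). Transferrin, TF, had 77.2, 67.7 and 57.4 CPM in pregnancy and 119, 127 and 10.2 CPM in anestrus, which overlap (-0.34 ± 0.72, and 0.18 without pregnancy 3 and anestrus 2).

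LCN2, a secreted lipocalin that binds iron-carrying siderophores, had 5.80, 5.71 and 10.99 CPM in pregnancy against 0.806, 0.598 and 1.46 CPM in anestrus, a log2 fold change of 2.94 ± 0.53. C4BPA, a soluble inhibitor of the complement cascade, had 24.1, 31.6 and 64.7 CPM in pregnancy and 11.3, 6.62 and 4.29 CPM in anestrus, a log2 fold change of 2.40 ± 0.47. DESeq2 called both, while in edgeR both had adjusted p = 0.711. The central complement protein C3 had 280.3, 387 and 588 CPM in pregnancy against 222, 177 and 130.4 CPM in anestrus, so that its groups did not overlap (1.24 ± 0.32, edgeR adjusted p = 0.711). MASP1, a protease of the lectin branch, had 83.2, 83.6 and 21.4 CPM in pregnancy and 6.32, 2.51 and 31.1 CPM in anestrus, where pregnancy 3 lay below anestrus 3. Of 25 complement genes, 14 were positive and 11 negative, 3 were higher and 0 lower at an unadjusted p under 0.05, and 3 were higher and 0 lower without overlap (5.73% and 7.32% of all genes). They had a median of 0.15 that turned to -0.04 without pregnancy 1 and to -0.08 without anestrus 1.

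**Figure D2:**
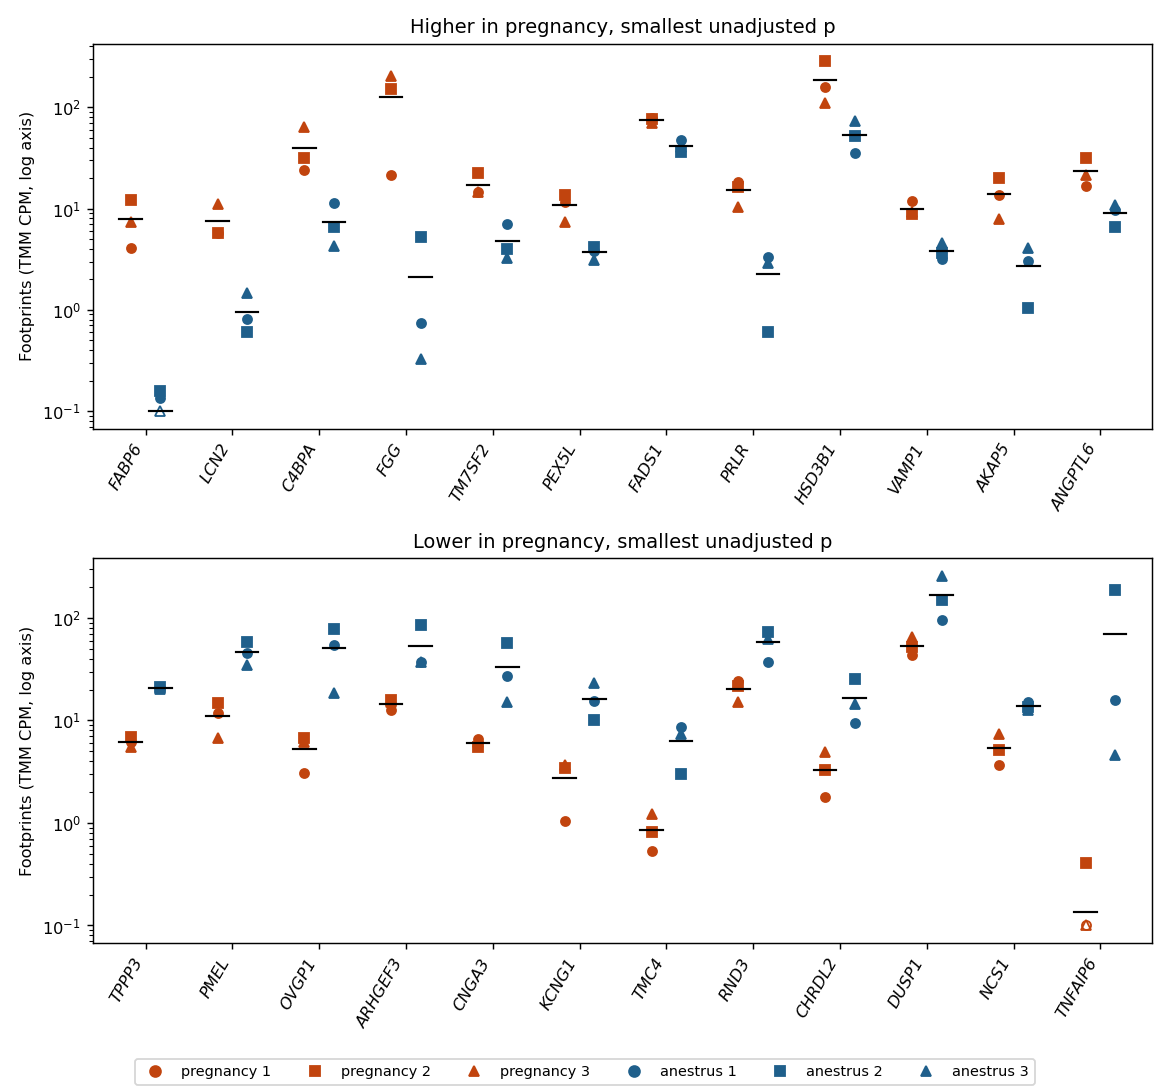
Footprint level (TMM-scaled CPM, log axis) of the 12 genes named as higher and the 12 named as lower in pregnancy, one point per library with pregnancy (orange) left of anestrus (blue) and the symbol giving the replicate. Horizontal lines are the means of 3 libraries, and open points at 0.1 stand for levels under 0.1 CPM. FABP6 and FGG are the most separated genes of the upper panel, and in the lower panel TPPP3 has 3 tightly grouped libraries in each stage.

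HSD3B1, which makes progesterone, and PRLR were separated between the stages. HSD3B1 had 159.9, 284 and 110.5 CPM in pregnancy against 35.1, 51.7 and 72.7 CPM in anestrus. All 3 pregnancy libraries were above all 3 anestrus libraries, with a log2 fold change of 1.80 ± 0.40 (edgeR adjusted p = 0.711) and a DESeq2 call (adjusted p = 0.00719). PRLR, the receptor for prolactin and placental lactogens, which sustain the corpus luteum in rodents, had 18.4, 16.5 and 10.4 CPM in pregnancy against 3.29, 0.598 and 2.91 CPM in anestrus. Its groups were also apart (2.79 ± 0.60, edgeR adjusted p = 0.711, DESeq2 adjusted p = 0.00324).

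Other steps of the path leaned the same way but overlapped. CYP11A1 had 589, 689 and 267 CPM in pregnancy and 216, 184 and 291 CPM in anestrus, with pregnancy 3 inside the anestrus range (1.16 ± 0.36). STAR (ENSBTAG00000001608) had 58.0, 106 and 65.9 CPM in pregnancy against 15.1, 58.4 and 14.3 CPM in anestrus, where anestrus 2 reached the lowest pregnancy library. Its log2 fold change was 1.39 ± 0.56, or 2.38 without anestrus 2 and 2.49 without pregnancy 3 as well. A second identifier with the STAR symbol (ENSBTAG00000033345) gave 1.41 ± 0.62, and 2.47 without both libraries. LHCGR, the receptor for luteinizing hormone, had 65.7, 65.3 and 16.5 CPM in pregnancy and 13.2, 4.14 and 25.6 CPM in anestrus, so only pregnancy 3 was within the anestrus range (1.82 ± 0.68). NR5A1, the transcription factor that switches on steroidogenic genes, had 149, 202 and 102 CPM in pregnancy and 77.5, 49.3 and 110.2 CPM in anestrus (0.94 ± 0.35). In edgeR each of these had adjusted p = 0.711.

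Androgen-making theca genes varied widely within each stage. CYP17A1 (ENSBTAG00000014335), which turns progestins into androgens, had 1959, 2618 and 329.6 CPM in pregnancy against 297, 24.9 and 918 CPM in anestrus. The groups overlapped because pregnancy 3 was low and anestrus 3 high (1.99 ± 1.12, edgeR adjusted p = 0.721). A second CYP17A1 identifier (ENSBTAG00000049558) gave 1.10 ± 0.95. INSL3, the relaxin-like hormone of theca cells, had 498, 2037 and 421 CPM in pregnancy and 62.3, 109 and 515 CPM in anestrus, with anestrus 3 alone reaching the pregnancy range (2.11 ± 0.89). CYP19A1, the aromatase that makes estradiol, had 20.8, 27.9 and 9.77 CPM in pregnancy and 171, 0.717 and 8.81 CPM in anestrus. The anestrus mean there was set by anestrus 1: the log2 fold change was -1.58 ± 1.43 over all 6 libraries and 2.11 without anestrus 1.

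Of the 15 luteal markers, 13 were positive and 2 negative, with a median log2 fold change of 0.88 beside -0.00 over all genes. At an unadjusted p under 0.05, 6 of the 15 were higher and 0 lower, beside 2.9% and 3.44% of all genes. Without overlap, 2 were higher and 0 lower, beside 5.73% and 7.32% of all genes. OXT, the luteal oxytocin gene, was among the negative members. It had 0.316, 3.06 and 1.83 CPM in pregnancy and 3.49, 26.1 and 1.37 CPM in anestrus, few counts in most libraries, with 1 high library, anestrus 2. Its log2 fold change was -2.71 ± 1.23 over 6 libraries, -0.58 without anestrus 2 and -0.66 without pregnancy 3 as well. The luteal median was 1.18 when pregnancy 3 and anestrus 2 were left out, again with 13 of 15 positive.

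All 9 theca markers were positive, with a median of 0.85, and 3 were higher at an unadjusted p under 0.05, beside 2.9% of all genes. Without overlap, 1 was higher and 0 lower, beside 5.73% and 7.32% of all genes. Their summed levels overlapped: 2922, 5185 and 1088 CPM in pregnancy against 637, 364 and 1752 CPM in anestrus, with pregnancy 3 below anestrus 3. All 9 were positive also with pregnancy 3 and anestrus 2 left out (median 0.70). LHCGR, STAR and CYP17A1 stand on both the theca list and a luteal or steroid list, so the lists are not independent. Of 22 steroid synthesis genes 15 were positive and 7 negative (median 0.37), with 6 higher and 1 lower at an unadjusted p under 0.05, beside 2.9% and 3.44% of all genes. The lower one was HSD11B2, which inactivates cortisol, at 3.69, 7.14 and 10.4 CPM in pregnancy and 13.9, 8.73 and 30.6 CPM in anestrus (-1.42 ± 0.55). FDXR, which feeds electrons to CYP11A1, had 61.0, 101 and 39.7 CPM in pregnancy and 24.4, 13.3 and 47.7 CPM in anestrus (1.26 ± 0.49).

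**Figure D3:**
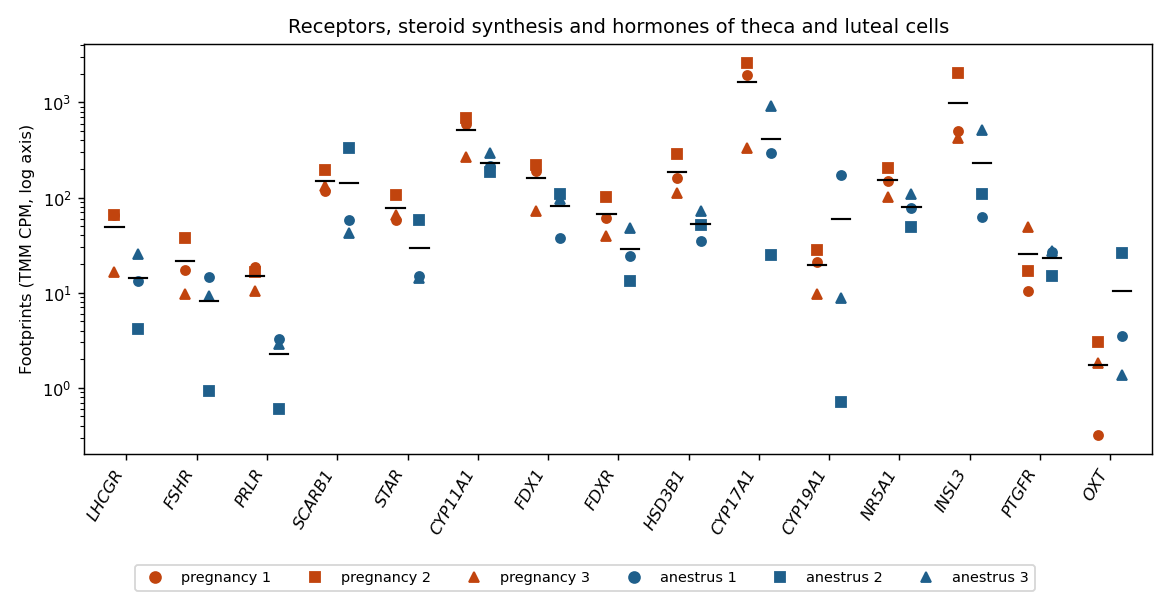
Footprint level (TMM-scaled CPM, log axis) of receptors, steroid synthesis genes and hormones of theca and luteal cells, one point per library with pregnancy (orange) left of anestrus (blue). Horizontal lines are means of 3 libraries. HSD3B1 and PRLR are separated without overlap, whereas CYP17A1, CYP19A1 and INSL3 spread widely within a stage.

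A row annotated as a steroid 21-hydroxylase-like protein, CYP21 (ENSBTAG00000001443), had 7.38, 12.6 and 4.88 CPM in pregnancy against 0.269, 0 and 0.162 CPM in anestrus. It was chosen after its values were seen, because DESeq2 called it (adjusted p = 8.21e-09), and its log2 fold change was 5.96 ± 0.89 (edgeR adjusted p = 0.540). In the adrenal gland this enzyme takes progesterone towards cortisol and aldosterone. A second row with the symbol (ENSBTAG00000047039), which did not pass the filter, had 54, 200 and 0 counts in pregnancy and 1, 11 and 0 in anestrus, so it was absent from pregnancy 3. The paralogous rows can share reads, and their values are uncertain for that reason. Of the adrenal cortex markers, MC2R and CYP11B1 had 0 counts in all 6 libraries, and MRAP had 2 counts in pregnancy and 62 in anestrus. Scaled for depth, MRAP had 0, 0.408 and 0 CPM in pregnancy against 0.202, 2.35 and 0 CPM in anestrus.

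Most granulosa genes overlapped between the stages. Of 19 markers 15 were positive and 4 negative, with a median of 0.46 that was -0.05 without pregnancy 2. At an unadjusted p under 0.05 there were 0, beside 6.34% of all genes. Without overlap, 2 were higher and 0 lower, beside 5.73% and 7.32% of all genes. AMH, the hormone of small growing follicles, had 84.0, 251.9 and 67.8 CPM in pregnancy and 46.5, 4.07 and 75.9 CPM in anestrus, a wide overlap (1.69 ± 0.90). FSHR, the receptor for follicle-stimulating hormone, had 17.3, 37.1 and 9.77 CPM in pregnancy and 14.5, 0.917 and 9.30 CPM in anestrus (1.42 ± 0.85). INHBA, the activin and inhibin subunit, had 208, 485 and 205 CPM in pregnancy and 1519, 145 and 154 CPM in anestrus. Anestrus 1 set that anestrus mean, with a log2 fold change of -1.01 ± 0.89 over 6 libraries and 1.00 without it. FOXL2, the transcription factor of granulosa identity, had a log2 fold change of 0.13 ± 0.44, and the inhibin subunit INHA one of 0.77 ± 0.74.

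Among receptors for steroids and prostaglandin, PGR stood out. The progesterone receptor PGR had 23.3, 29.8 and 42.7 CPM in pregnancy against 62.8, 53.8 and 55.2 CPM in anestrus. The groups did not overlap, with a log2 fold change of -0.87 ± 0.25 (edgeR adjusted p = 0.711, DESeq2 adjusted p = 0.233). ESR1 (0.05 ± 0.50), ESR2 (0.43 ± 0.57) and the prostaglandin F receptor PTGFR (0.08 ± 0.54) were within 1 standard error of 0, and pregnancy 3 was the highest library for ESR1 and PTGFR. Without pregnancy 3 and anestrus 2 the log2 fold changes were -0.69 for ESR1, -0.20 for ESR2 and -0.98 for PTGFR.

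Cholesterol synthesis genes were higher as a group. Of 24, 21 were positive and 3 negative, with a median of 0.43, and 7 were higher at an unadjusted p under 0.05 and 0 lower, beside 2.9% and 3.44% of all genes. In 6 the pregnancy libraries all lay above the anestrus libraries, and in 1 all below, beside 5.73% and 7.32% of all genes. SREBF2, the transcription factor that drives the pathway, had 136, 131 and 142 CPM in pregnancy against 92.1, 88.6 and 87.3 CPM in anestrus, a small and even difference (0.61 ± 0.16). TM7SF2, a sterol reductase of the pathway, had 14.5, 22.4 and 14.6 CPM in pregnancy against 6.99, 3.99 and 3.23 CPM in anestrus (1.87 ± 0.37), and DESeq2 called it (adjusted p = 0.00668). MSMO1, which removes methyl groups from the sterol ring, had 163, 170.1 and 179 CPM in pregnancy and 135, 99.5 and 74.4 CPM in anestrus (0.73 ± 0.24). In edgeR all of these had adjusted p = 0.711.

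In the cholesterol list anestrus 2 was the odd library. Its list score, the mean of its members' log2 CPM minus each gene's mean over the 6 libraries, was 0.15, against -0.39 and -0.51 in anestrus 1 and 3, while pregnancy libraries scored 0.32, 0.34 and 0.09. Without pregnancy 3 and anestrus 2 the median was 0.83, with 23 of 24 positive. FADS1, a desaturase of polyunsaturated fatty acids and not on the list, had 78.4, 77.3 and 70.2 CPM in pregnancy against 47.7, 36.1 and 41.0 CPM in anestrus (0.86 ± 0.19, DESeq2 adjusted p = 0.048). The other genes named as higher were PEX5L (1.58 ± 0.34), the vesicle fusion protein VAMP1 (1.40 ± 0.32), the kinase-anchoring protein AKAP5 (2.41 ± 0.56) and the angiopoietin-like ANGPTL6 (1.37 ± 0.32). Of the 12 named as higher, DESeq2 called 10, all but VAMP1 and ANGPTL6. It also called VTCN1, an inhibitor of T cells (3.89 ± 0.55), and the acyl-CoA synthetase ACSM1 (3.72 ± 0.62), both under 5 CPM on average and chosen after their values were seen.

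Among genes lower in pregnancy, TPPP3 and PMEL had the smallest p. TPPP3, which promotes tubulin polymerization, had 6.22, 6.93 and 5.49 CPM in pregnancy against 20.8, 21.4 and 20.4 CPM in anestrus. Both groups were tight, with a log2 fold change of -1.73 ± 0.23 (edgeR adjusted p = 0.468, DESeq2 adjusted p = 9.29e-05). PMEL, the fibril protein of melanosomes, had 11.7, 14.7 and 6.71 CPM in pregnancy against 45.03, 58.6 and 34.9 CPM in anestrus, with no overlap (-2.01 ± 0.32, edgeR adjusted p = 0.606). OVGP1, the glycoprotein secreted by oviduct epithelium, had 3.06, 6.73 and 6.10 CPM in pregnancy against 54.6, 78.3 and 18.4 CPM in anestrus (-3.32 ± 0.58, edgeR adjusted p = 0.711, DESeq2 adjusted p = 1.04e-05).

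Other epithelial markers did not all follow OVGP1. Of 14 surface and oviduct epithelium markers that passed the filter, 7 were positive and 7 negative, and their summed levels were 226 to 324 CPM in pregnancy and 289 to 410 CPM in anestrus. The keratin KRT8 had 62.9, 84.0 and 63.5 CPM in pregnancy and 122, 83.3 and 118 CPM in anestrus (-0.62 ± 0.22). The adhesion molecule EPCAM had 0.843, 1.63 and 6.10 CPM in pregnancy and 11.1, 8.97 and 0.728 CPM in anestrus, so anestrus 3 was the lowest of all. Whether oviduct or surface cells were unequal between the dissected pieces was not tested.

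TNFAIP6, which crosslinks the hyaluronan matrix of the ovulatory follicle, was nearly absent from pregnancy. It had 0, 0.408 and 0 CPM in pregnancy, 2 counts in all, against 15.8, 189 and 4.61 CPM in anestrus, 5034 counts in all and most of them in anestrus 2. The ratio of pooled rates, anestrus over pregnancy, was 771, with an exact 95% counting interval of 213 to 6366 that leaves out the spread between libraries (edgeR adjusted p = 0.711, DESeq2 adjusted p = 0.0226). Leaving out pregnancy 3 and anestrus 2, the ratio was 77.1 (counting interval 21.2 to 639.7), from 2 counts in pregnancy and 292 in anestrus. ADAMTS4, a protease of the same matrix, had 62.4, 58.1 and 44.6 CPM in pregnancy and 78.2, 6480 and 122 CPM in anestrus, so anestrus 2 alone held it high. The glycolytic enzyme HK2 was likewise 16.6, 26.1 and 19.5 CPM in pregnancy and 18.3, 383 and 22.1 CPM in anestrus. Without pregnancy 3 and anestrus 2 the log2 fold changes were -0.72 for ADAMTS4 and 0.07 for HK2, against -5.33 and -2.77 over 6 libraries.

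IGF1, the growth factor, had 41.5, 33.2 and 77.5 CPM in pregnancy against 192, 268 and 86.6 CPM in anestrus, without overlap although pregnancy 3 and anestrus 3 were near each other (-1.87 ± 0.46, edgeR adjusted p = 0.711, DESeq2 adjusted p = 0.0227). It was chosen after its values were seen, as was the collagen COL6A3 (-1.47 ± 0.40, DESeq2 adjusted p = 0.0494, and -0.81 without pregnancy 3 and anestrus 2). As a list, 10 of 17 insulin-like growth factor genes were negative (median -0.23), and the median was 0.11 without pregnancy 3 and anestrus 2. The rest of the 12 named as lower were CNGA3, a subunit of a cyclic nucleotide gated channel (-2.43 ± 0.49), the potassium channel subunit KCNG1 (-2.71 ± 0.55), TMC4 (-3.07 ± 0.62), the cytoskeletal regulators ARHGEF3 (-1.88 ± 0.37) and RND3 (-1.46 ± 0.30), the BMP-binding CHRDL2 (-2.46 ± 0.51), the calcium sensor NCS1 (-1.43 ± 0.32) and DUSP1. DESeq2 called 11 of the 12, all but NCS1.

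Immediate early genes, which are switched on within minutes of a stimulus and also by tissue handling, were lower in pregnancy in 27 of 28 cases, with a median of -0.88. At an unadjusted p under 0.05, 6 of 28 were lower and 0 higher (3.44% and 2.9% of all genes), and 7 were lower without overlap (7.32% of all genes). DUSP1, a phosphatase that turns off MAP kinases, had 43.6, 51.6 and 65.3 CPM in pregnancy against 94.4, 150.3 and 257 CPM in anestrus (-1.65 ± 0.37, edgeR adjusted p = 0.711, DESeq2 adjusted p = 0.0131). BTG2, an antiproliferative gene, had 51.5, 44.5 and 64.1 CPM in pregnancy and 77.6, 124 and 95.8 CPM in anestrus, again apart (-0.90 ± 0.24). The scores of the list overlapped: -0.63, -0.68 and 0.12 in pregnancy against -0.39, 0.64 and 0.94 in anestrus. With pregnancy 3 and anestrus 2 left out the median was -1.02 and 27 of 28 were negative.

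Ribosomal protein genes were lower in pregnancy throughout. All 77 that passed were negative, with a median of -0.57 (29 at an unadjusted p under 0.05 beside 3.44% of all genes, and 34 without overlap beside 7.32% of all genes). RPS4X had 151, 117 and 148 CPM in pregnancy against 229, 327 and 177 CPM in anestrus (-0.82 ± 0.26), and RPL5 had 172, 130.5 and 136 CPM in pregnancy against 242, 367 and 183 CPM in anestrus (-0.85 ± 0.28). Anestrus 2 was the highest library in both, and RPL5 was at -0.47 without it and pregnancy 3. The scores were -0.24, -0.36 and -0.23 in pregnancy against 0.24, 0.76 and -0.17 in anestrus, so anestrus 3 lay close to the pregnancy libraries. All 77 were negative also without those 2 outlying libraries, pregnancy 3 and anestrus 2 (median -0.33). These genes move together, so the count says less than as many separate genes would.

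Translation factors went with them only in part. Of 43, 40 were negative with a median of -0.38, and EEF1A1, the factor that brings aminoacyl-tRNA to the ribosome, had 748, 755 and 928 CPM in pregnancy against 1399, 2113 and 1128 CPM in anestrus (-0.93 ± 0.28). Without pregnancy 3 and anestrus 2 only 29 of 43 were negative, at a median of -0.09. A row named eef1as, called by DESeq2 as lower, has no gene of known name and is not described.

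Smooth muscle genes were lower in 14 of 15 cases, with a median of -0.36 and 6 members without overlap, all lower, beside 7.32% of all genes. ACTG2, an enteric smooth muscle actin, had 438, 479 and 354 CPM in pregnancy against 607, 773 and 694 CPM in anestrus (-0.71 ± 0.21). The contractile regulator CNN1 had 157, 224 and 250.3 CPM in pregnancy and 296, 363 and 485 CPM in anestrus (-0.86 ± 0.26). CALD1 was the exception, at 978, 909 and 1339 CPM in pregnancy and 898, 920.3 and 799 CPM in anestrus (0.30 ± 0.23, and 0.17 without pregnancy 3 and anestrus 2). The smooth muscle median without both libraries was -0.50, again with 14 of 15 negative. Plasma cell and B cell genes were negative in 10 of 12 cases (median -0.42), and in 11 of 12 without those libraries (median -0.75). The 12 included MZB1, a chaperone of antibody-secreting cells, at 21.6, 21.8 and 27.5 CPM in pregnancy and 58.7, 25.9 and 34.9 CPM in anestrus (-0.77 ± 0.32), where anestrus 2 lay just below the highest pregnancy library.

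**Figure D4:**
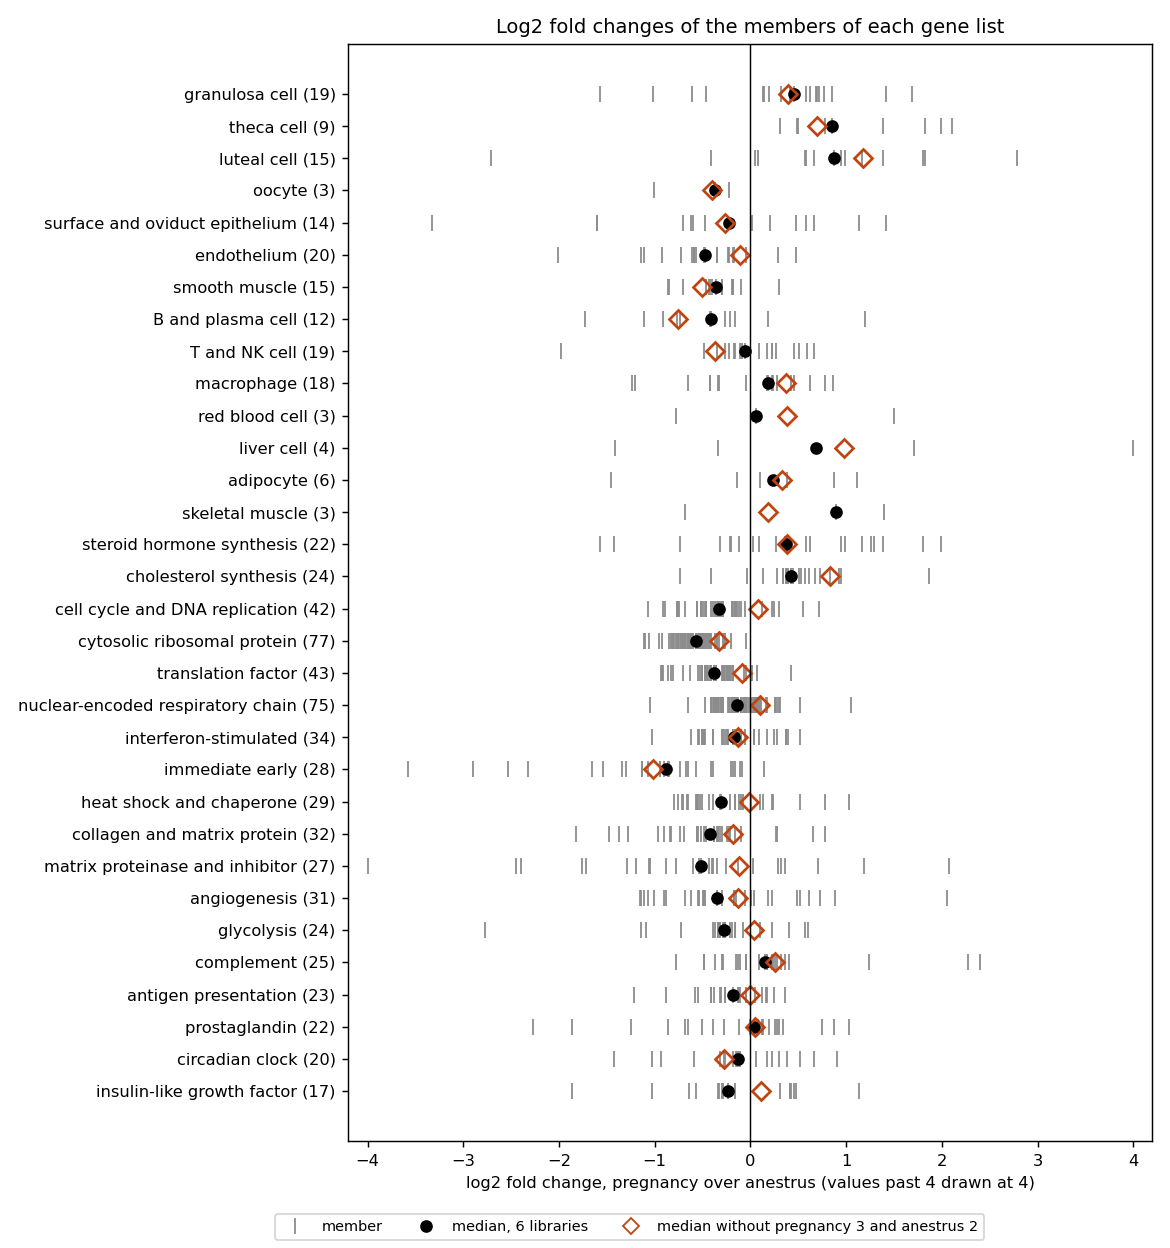
Log2 fold changes (pregnancy over anestrus) of the members of each gene list with at least 3 members tested, as grey ticks, with the number of members in brackets. Black dots are the median over 6 libraries and orange diamonds the median without pregnancy 3 and anestrus 2. Ribosomal proteins lie wholly left of 0, luteal, theca and cholesterol genes lie mostly right of it, and the cell cycle and glycolysis medians cross 0 when both libraries are left out.

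Several lists depended on pregnancy 3 and anestrus 2. The median of cell cycle genes was -0.33 (36 of 42 negative), and 0.08 without both libraries (25 positive). Their score was -1.15 in pregnancy 3, the shallowest library, against 0.15 and 0.22 in pregnancy 1 and 2. Glycolysis was at -0.27 (19 of 24 negative), and 0.04 without both. Endothelial genes had 18 of 20 negative and a median of -0.48, against -0.11 without both. Matrix proteinases were at -0.52 and -0.12, collagens and other matrix proteins at -0.42 and -0.18 and angiogenesis genes at -0.35 and -0.13, with the value without both libraries second. Respiratory chain genes were at -0.14 (50 of 75 negative) and 0.10. Heat shock genes were at -0.31 and -0.02. With library size as a covariate the medians of the endothelial, cell cycle, glycolysis, heat shock, matrix proteinase, respiratory chain and insulin-like growth factor lists turned positive.

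Some endothelial and angiogenic genes kept apart in all libraries. EPAS1, the hypoxia-inducible factor known for high-altitude adaptation in people, had 28.5, 29.8 and 31.1 CPM in pregnancy against 43.8, 103 and 50.8 CPM in anestrus, a log2 fold change of -1.15 that was -0.69 without pregnancy 3 and anestrus 2. The endothelin receptor EDNRA, found on contractile cells of vessel walls, had 269, 314 and 303 CPM in pregnancy against 170.4, 146 and 219 CPM in anestrus. The stages did not overlap for either gene, and the differences run in opposite directions. Over the lists, 8 of 31 angiogenesis genes were lower and 2 higher without overlap, and 3 of 20 endothelial genes were lower and 0 higher. Of all genes, 7.32% were lower and 5.73% higher without overlap.

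Macrophage genes had 10 of 18 positive (median 0.18), with VSIG4, a complement receptor of resident macrophages, at 23.7, 22.0 and 32.4 CPM in pregnancy against 10.6, 15.3 and 16.7 CPM in anestrus (0.86 ± 0.26). T and natural killer cell genes had 9 of 19 positive (median -0.05). Interferon-stimulated genes had 24 of 34 negative (median -0.17), with 6 lower and 0 higher without overlap, beside 7.32% and 5.73% of all genes. Interferon-stimulated genes are those that the ruminant conceptus raises in early pregnancy through interferon tau. Antigen presentation genes were 17 of 23 negative (median -0.19), with 4 lower and 0 higher without overlap (7.32% and 5.73% of all genes). Prostaglandin genes split evenly, 11 to 11 (median 0.03), and circadian clock genes were 12 of 20 negative (median -0.13). The trophoblast list gave only PAG1 a tested level, 6.85, 5.30 and 5.49 CPM in pregnancy and 6.45, 5.22 and 4.85 CPM in anestrus, which overlap between stages. Medians of the macrophage, T and natural killer cell, prostaglandin and circadian lists turned sign in 2, 5, 7 and 3 of 18 alternatives, in that order, and those of the interferon-stimulated and antigen presentation lists in 0 of 18. Markers of tissues that could adhere to the ovary were few: 6 of 10 adipocyte genes (4 positive, median 0.24), 3 of 12 skeletal muscle genes (2 positive, median 0.89) and 3 of 10 red blood cell genes (2 positive, median 0.06) passed the filter. The 3 oocyte genes were all negative (median -0.36).

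**Figure D5:**
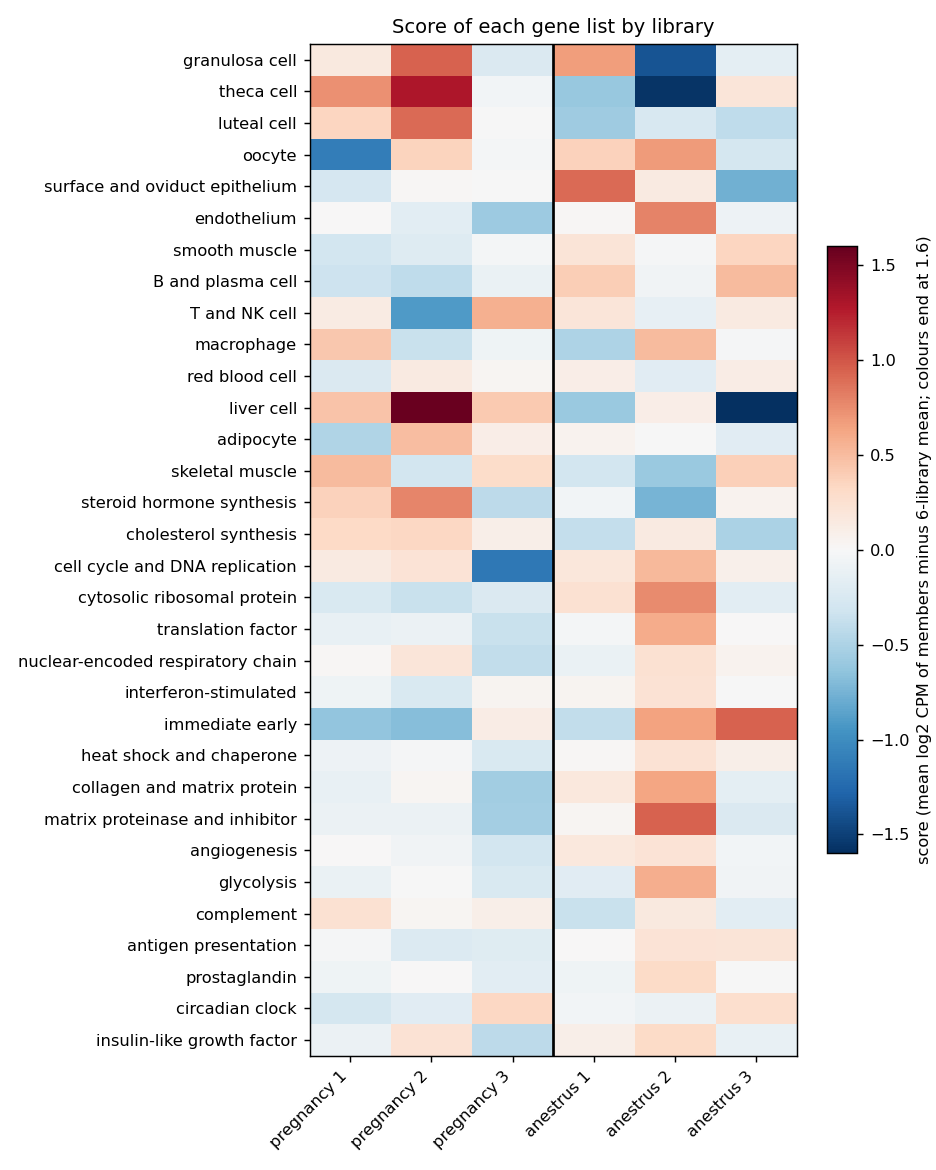
Score of each gene list in each library, pregnancy libraries left of the line and anestrus libraries right of it. The score is the mean log2 CPM of the tested members minus each gene's mean over the 6 libraries, with red high and blue low. Anestrus 2 is low for theca and granulosa genes and high for matrix proteinase, and pregnancy 3 is low for the cell cycle list.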

How the data were processed

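Whole-ovary ribosome footprints were measured in 9 libraries, of which 6 are compared. Per the submitters' processing notes, Bowtie2 and RSEM were used; no version or build is stated in what was read here. The authors deposited per gene an estimated count and an FPKM for each library, and a table of log2 fold changes (anestrus over pregnancy), p-values and FDR. Genes carry cattle Ensembl identifiers; a symbol on several was read from the identifier with most counts.

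Estimated counts were rounded and tested with edgeR 4.0.16 in R 4.3.3: TMM scaling, filterByExpr (13744 of 21652 genes, 99.9% of counts), quasi-likelihood F test, Benjamini-Hochberg adjustment at 0.05. DESeq2 1.42.0 and limma 3.58.1 (voom) were alternatives among 19, with other scalings, filters, all 9 libraries, library size as covariate, and libraries left out. Scripts were tested on simulated data. Intervals and floors cover counting error only.

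Named genes were 17 core ovarian genes and the 12 higher and 12 lower with the smallest unadjusted p, a known name, at least 5 CPM in the higher stage and no overlap, plus up to 3 members per direction of each list. The 34 lists (871 entries, 843 matched) and the comparison were chosen with earlier results of these data known; lists are described by counts and medians. No sequence is printed, since no sequence table was used here. Some items are not reported here.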

Additional observations from a re-analysis of the deposited data

How the results depend on the processing

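The count of genes past an adjusted p of 0.05 was 0 in 15 of 19 alternatives: 14 edgeR fits, the 6 that leave out 1 library included, and limma-voom. DESeq2 and the authors' deposited table gave 36 each. The replicate block gave 1 (TNFAIP6, lower, adjusted p = 0.0108), and leaving out anestrus 2 and pregnancy 3 gave 1, also lower. Deviations of same-numbered libraries from their stage means correlated at -0.04, 0.13 and 0.08, and the libraries did not each correlate best with their own number. With 3 libraries per stage this cannot settle whether replicate numbers pair the libraries. Scaling by library size alone shifted the median of all genes by 0.13, with 638 genes higher and 250 lower at an unadjusted p under 0.05. List medians moved beyond the spread in 59 of 574 cases. Core genes turned sign as follows, and the cause was not tested. With library size as covariate, OXT was 0.017, ESR2 -0.70, PTGFR -1.85 and ESR1 -1.50. With voom, CYP19A1 was 0.37, PTGFR -0.88 and ESR1 -0.64. With the replicate block, CYP19A1 was 0.40 and PTGFR -0.10. Without anestrus 2 and pregnancy 3, ESR2 was -0.20, PTGFR -0.98 and ESR1 -0.69. Leaving out single libraries gave ranges of -3.95 to -0.58 for OXT, -1.55 to 1.00 for INHBA, -2.15 to 2.11 for CYP19A1, -0.016 to 1.94 for INHA, -0.31 to 0.45 for FOXL2, -0.74 to 0.48 for PTGFR and -0.52 to 0.56 for ESR1. Depth limits low genes in pregnancy 3 most, and library size and stage cannot be told apart.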

Other observations

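A row with the symbol ICAM1 (ENSBTAG00000049560), an adhesion molecule, had 0, 0.204 and 13.4 CPM in pregnancy and 9.68, 14.3 and 11.97 CPM in anestrus. Pregnancy 1 and 2 were low, while pregnancy 3 lay within the range of the anestrus libraries. The row was chosen after its values were seen, for its small p without pregnancy 3.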
